A study of Homo sapiens with 4 samples.

Results

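The regions described here are the peaks of 5-methylcytosine (5mC) in and around 10 genes of the epithelial-mesenchymal transition, CDH1, ESRP1, CDH2, VIM, FN1, ZEB1, ZEB2, TWIST1, SNAI1 and SNAI2. Members were the peaks overlapping the hg19 span of each gene with about 5 kb on each side. They numbered 92 of 261657 peaks in control cells and 114 of 296521 in knockout cells. The cells were C42B, a prostate cancer line derived from LNCaP, either with the control guide sgC, labelled WT, or with sgPKCl/i, labelled PKCl/i KO. The guide is directed at PRKCI, the gene of an atypical protein kinase C. DNA was taken from cells that had received no treatment, at about 70% confluency and 48 h after plating, and methylated fragments were captured with the antibody 33D3 (MeDIP-seq). Each genotype had 1 input and 1 immunoprecipitated library, and 1 peak list was called for each immunoprecipitate. The labels do not say whether the knockout cells were a clone or a pool, and RNA was not analysed here, so the epithelial state of the line was not checked.

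In the epithelial-mesenchymal transition, cells held together by E-cadherin loosen their contacts and take on a migratory form. The transcription factors of the ZEB, SNAI and TWIST families repress CDH1 and other epithelial genes, while CDH2, VIM and FN1 are the usual mesenchymal products. In a human genome the CpG-rich start of a gene is usually free of methylation, the body of a transcribed gene is usually methylated, and methylation over a start usually goes with silencing.

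The position of each start was set 5 kb in from the 5′ end of the span, which may lie about 1 kb from the annotated start. RefSeq promoter entries were found for 5 of the 10 genes, and the 250 bases upstream of the start are shown because the antibody binds methylated cytosines, which in most human cells lie at CpGs. The motif searched was CG, which reads the same on both strands. They are in build GRCh38.p14, matched by symbol and not laid on the hg19 peaks, with each CG in capitals.
CDH2 (chr18:28177131-28177380, minus strand): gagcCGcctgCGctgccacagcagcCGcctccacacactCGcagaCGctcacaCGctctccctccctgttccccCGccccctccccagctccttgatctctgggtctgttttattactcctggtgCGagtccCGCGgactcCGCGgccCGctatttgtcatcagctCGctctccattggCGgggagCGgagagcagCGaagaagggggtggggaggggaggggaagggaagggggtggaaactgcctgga
FN1 (chr2:215436069-215436318, minus strand): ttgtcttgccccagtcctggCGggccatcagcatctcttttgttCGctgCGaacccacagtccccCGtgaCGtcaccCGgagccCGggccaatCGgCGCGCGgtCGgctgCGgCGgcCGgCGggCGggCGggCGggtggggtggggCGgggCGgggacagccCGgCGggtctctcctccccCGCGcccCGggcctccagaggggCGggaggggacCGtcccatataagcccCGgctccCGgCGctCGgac
ZEB1 (chr10:31319518-31319767, plus strand): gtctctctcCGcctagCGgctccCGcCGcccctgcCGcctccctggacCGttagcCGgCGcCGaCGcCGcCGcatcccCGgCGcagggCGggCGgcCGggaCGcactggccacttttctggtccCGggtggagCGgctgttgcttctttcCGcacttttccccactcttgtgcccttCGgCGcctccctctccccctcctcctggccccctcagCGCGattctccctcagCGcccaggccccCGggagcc
ZEB2 (chr2:144520120-144520369, minus strand): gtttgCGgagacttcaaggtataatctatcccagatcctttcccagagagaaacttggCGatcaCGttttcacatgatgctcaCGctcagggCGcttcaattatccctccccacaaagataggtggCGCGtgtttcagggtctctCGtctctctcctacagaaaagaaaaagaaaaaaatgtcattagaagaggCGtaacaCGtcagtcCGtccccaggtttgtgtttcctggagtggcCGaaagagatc
VIM (chr10:17227991-17228240, plus strand): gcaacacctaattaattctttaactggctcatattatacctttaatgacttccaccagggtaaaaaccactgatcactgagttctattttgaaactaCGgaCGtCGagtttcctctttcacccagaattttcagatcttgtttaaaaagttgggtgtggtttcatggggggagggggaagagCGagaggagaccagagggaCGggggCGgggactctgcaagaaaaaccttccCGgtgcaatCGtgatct
FN1 had the most CpGs with 32, a number that 9.52% of all 35116 promoter entries reach. The ZEB1 entry shown, the most CpG-rich of its 7, held 27 (reached by 17.7%) and the first CDH2 entry held 17 (39.0%). ZEB2 held 12 (48.5%) and VIM held 8 (56.3%). The median over all entries was 11.

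Pileup, the number of fragments over a peak's summit, is given as deposited and, where libraries are set side by side, divided by the library's floor. The floor is the lowest local background recovered from a list and stands for the mean pileup of the library. Control cells had a floor of 2.92 and knockout cells one of 4.42, so the knockout was 1.51 times deeper. A strong peak had a −log10 q of at least 10. A peak was called list-only where nothing in the second list overlapped it by 1 bp or more. With 1 library per genotype there is no replicate check and no test between genotypes. Intervals in parentheses are 95% intervals for counting error only.

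Methylated regions were very unevenly spread over the 10 genes, and the spread was alike in both genotypes. CDH1, ESRP1 and FN1 together held 79 of 92 control peaks (85.9%) and 93 of 114 knockout peaks (81.6%) in 272 kb of span. CDH2, ZEB1 and ZEB2, the 3 longest spans, held 2 control and 4 knockout peaks in 607 kb. TWIST1 and CDH2 held no peak in either list. The short spans of VIM, SNAI1 and SNAI2 held 2, 6 and 3 control peaks and 3, 9 and 5 knockout peaks. Over all 943 kb the peaks covered 44.3 kb (4.70%) in the control and 58.6 kb (6.21%) in the knockout. Knockout over control, this is a ratio of 1.24 for the number and 1.32 for the length covered, against 1.13 and 1.17 over the whole lists. Peaks of these genes were of ordinary strength, with median pileups of 22 (control) and 31 (knockout). Divided by the floors, the medians were 7.53 and 7.01, against 8.55 and 8.14 over the whole lists.

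**Figure D1:**
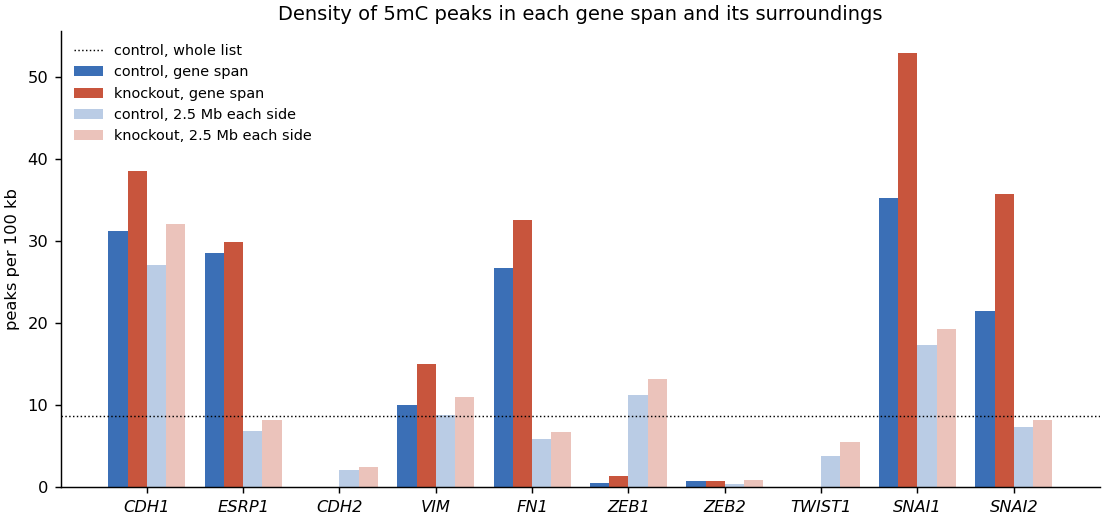
Peaks per 100 kb (y axis) in the span of each of the 10 genes (solid bars) and in the 2.5 Mb on each side of it (pale bars), for the control (blue) and the knockout (red) list; the dotted line is the control's whole-list density of 8.70. CDH1, ESRP1, FN1, SNAI1 and SNAI2 stand at 21.4 or more in both lists, and CDH2, ZEB1, ZEB2 and TWIST1 at 1.35 or less.

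CDH1 encodes E-cadherin, the adhesion molecule of epithelial junctions, and its span (chromosome 16, 68.766 to 68.875 Mb) had peaks spread along its length. It held 34 control peaks covering 15.0% of the span and 42 knockout peaks covering 21.6%. The density, 31.2 peaks per 100 kb for control cells and 38.5 for knockout cells, was close to that of the 2.5 Mb on each side (27.1 and 32.1). Control pileups ran from 15 to 41 with a median of 21.5, and knockout pileups from 17 to 70 with a median of 31. The highest control peak had a pileup of 41 (29.4 to 55.6) at 68869362 to 68869870, and the knockout had 60 there. The highest knockout peak had a pileup of 70 (54.6 to 88.4) at 68823500 to 68824047, where the control had 35. Both lay deep in the span, 98.6 and 52.7 kb from the start.

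The start of CDH1 itself had little signal, all of it weak. Within 5 kb of the start the control list held a peak at 68770190 to 68770645, 0.604 kb upstream, with a pileup of 20 (12.2 to 30.9), a −log10 q of 5.78 and a local background of 1.65 times the floor. No knockout peak overlapped it. At the knockout's depth the same level would be a pileup of 30.3, and why no knockout peak was called there was not tested. The knockout list held its own weak peak 3.25 kb upstream with a pileup of 25 (16.2 to 36.9), which the control list lacked. From about 5.41 kb downstream onward both lists had peaks, where the first control peak had a pileup of 22 and the first knockout peak 39.

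ESRP1 encodes an RNA-binding protein that sets epithelial patterns of splicing, and its span (chromosome 8, 95.648 to 95.725 Mb) differed little between the genotypes. It held 22 control peaks covering 13.5% and 23 knockout peaks covering 14.4%, and 20 peaks of each list were shared. Its densities of 28.6 (control) and 29.9 (knockout) peaks per 100 kb were 4.19 and 3.64 times that of the flanking 2.5 Mb. The strongest region lay upstream of the gene, 4.46 kb from the start in the control. Its pileup was 40 in the control (95648111 to 95648893) and 80 in the knockout (95648135 to 95648873), 13.7 and 18.1 times the floors. The local background there was 1.00 times the floor for the control and 1.70 times for the knockout. A further strong region 2.34 kb upstream had pileups of 29 and 42. No peak of either list lay between it and 8.62 kb downstream, so the start sat in a stretch of 10.8 kb without a peak in both genotypes.

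FN1 encodes fibronectin, an extracellular matrix protein that mesenchymal cells secrete, and its body was methylated about as densely as the epithelial genes. The span (chromosome 2, 216.220 to 216.306 Mb) held 23 control peaks covering 11.9% and 28 knockout peaks covering 16.1%. At 26.7 and 32.6 peaks per 100 kb it was 4.61 and 4.82 times as dense as its surroundings. The strongest region in both lists was inside the gene, 9.20 kb from the start, where the control pileup was 46 (33.7 to 61.4) and the knockout pileup 58 (44.0 to 75.0).

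The CpG-rich start of FN1 lay in a gap of 11.9 kb in the control list. With strong peaks alone the control gap was 76.7 kb. In the knockout the gap was 6.05 kb either way, because a strong peak at 216299280 to 216299634, 1.52 kb into the gene, was found in the knockout only. Its pileup was 28 (18.6 to 40.5), which would be 18.5 at the control's depth. Scaled so, it still reached the lowest −log10 p of the control list, and why no control peak was called there was not tested. About 4.94 kb upstream both lists had a peak, with pileups of 19 and 27.

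CDH2 encodes N-cadherin, the adhesion molecule that replaces E-cadherin in mesenchymal cells and neurons, and its 238 kb span (chromosome 18, 25.525 to 25.763 Mb) was without a peak in both genotypes. The stretch without a peak around its start was 1110 kb long in the control and 1030 kb in the knockout. Longer stretches between neighbouring peaks numbered 104 of 261632 for the control and 79 of 296497 for the knockout, assembly gaps included. The nearest upstream peak was 372 kb away in the control and 69.9 kb away in the knockout. The surroundings were also sparse, with 2.10 and 2.38 peaks per 100 kb. MeDIP does not separate unmethylated DNA from DNA with too few CpGs to be captured, and which applies to CDH2 was not tested. The first CDH2 promoter entry, shown above, holds 17 CpGs and the second holds 4.

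ZEB1, a zinc finger repressor of CDH1, was sparser than its surroundings, where FN1 and ESRP1 were denser. Its 222 kb span (chromosome 10, 31.602 to 31.824 Mb) held 1 control and 3 knockout peaks, while the flanking 2.5 Mb held 11.3 and 13.2 peaks per 100 kb. The span's density was a fraction of that of the flanks, 0.0400 for the control and 0.102 for the knockout. The shared peak lay near the 3′ end, 209 kb from the start at 31815778 to 31816159 in the control, with pileups of 16 (9.15 to 26.0) and 28 (18.6 to 40.5). The knockout-only peaks were a strong one at 31802407 to 31802771 with a pileup of 29 (19.4 to 41.7) and a weak one at 31700339 to 31700638 with 22 (13.8 to 33.3). Around the start no peak was found over 217 kb in the control and 101 kb in the knockout. The weak peak bounds the knockout stretch, which was 203 kb with strong peaks alone. The start was without a peak, and the ZEB1 promoter entries hold from 7 to 27 CpGs.

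ZEB2, the paralog of ZEB1, lay in a region nearly empty of peaks. Its 147 kb span (chromosome 2, 145.136 to 145.283 Mb) held 1 weak control peak with a pileup of 19 (11.4 to 29.7) at 145147152 to 145147521. The overlapping knockout peak was strong, with a pileup of 26 (17.0 to 38.1). Relative to the floors these were 6.50 and 5.88. The peak-free stretch around the start was 1998 kb in both lists, and longer ones numbered 27 (control) and 23 (knockout). In the flanking 2.5 Mb on each side there were 21 control and 44 knockout peaks.

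TWIST1 encodes a basic helix-loop-helix factor of mesoderm, and its 13 kb span (chromosome 7, 19.150 to 19.163 Mb) had no peak in either genotype. The stretch without a peak around it was 730 kb in the control and 139 kb in the knockout. In the knockout the nearest peak was 11.7 kb downstream of the start, beyond the span, and in the control it was 187 kb upstream. The flanking 2.5 Mb held 190 control and 276 knockout peaks, 1.45 times as many, against 1.13 times over the whole lists.

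SNAI1, a zinc finger repressor of CDH1, was unlike ZEB1, ZEB2 and TWIST1 in having peaks close to its start in both genotypes. Its 17 kb span (chromosome 20, 48.594 to 48.611 Mb) held 6 control peaks covering 20.2% and 9 knockout peaks covering 27.7%, the highest shares among the 10 genes. All 6 control peaks were shared. Upstream of the start, the control peak at 48598182 to 48598600 had a pileup of 24 (15.4 to 35.7) and the knockout peak at 48597708 to 48598633 had 41 (29.4 to 55.6). The start sat in a gap of 1.58 kb for the control (3.24 kb with strong peaks alone) and 1.53 kb for the knockout. Downstream of this gap lay a weak control peak at 48600181 to 48600955, with a pileup of 26 (17.0 to 38.1). The knockout peak over it, at 48600164 to 48601092, was strong, with a pileup of 40 (28.6 to 54.5). The highest pileups were 3.31 kb downstream, 34 (23.5 to 47.5) in the control and 52 (38.8 to 68.2) in the knockout. Scaled by the floors, these were 11.6 and 11.8. By fold enrichment the log2 ratio of this pair was -0.53, with a local background of 1.26 times the floor for the control and 2.10 times for the knockout. The local background here was above the floor, with median ratios of 1.39 for the control peaks and 1.70 for the knockout peaks.

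SNAI2, the related factor also called Slug, had 3 control and 5 knockout peaks in 14 kb (chromosome 8, 49.825 to 49.839 Mb). The strongest in both lists lay about 2.07 kb upstream of the start. Its pileup was 41 (29.4 to 55.6) in the control at 49835864 to 49836270 and 77 (60.8 to 96.2) in the knockout at 49835788 to 49836334. The local background there was also high, 2.41 times the floor for the control and 2.13 times for the knockout. A knockout-only strong peak with a pileup of 31 (21.1 to 44.0) lay 1.02 kb into the gene, at 49832757 to 49833129, so the gap over the start was 7.06 kb in the control (12.3 kb with strong peaks alone) and 2.66 kb in the knockout.

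VIM encodes vimentin, the intermediate filament of mesenchymal cells, and it was the only gene of the 10 with a start position inside a peak, in the control list. The span (chromosome 10, 17.265 to 17.285 Mb) held 2 control and 3 knockout peaks. The control peak at 17269822 to 17270924 covered the start position with a pileup of 51 (38.0 to 67.1). The knockout peak at 17270028 to 17271054 began 0.028 kb downstream of that position, less than its uncertainty, with a pileup of 90 (72.4 to 111). These were the highest pileups of the 10 genes, 17.4 and 20.3 times the floors. A second shared region 3.21 kb upstream had pileups of 35 and 46. The VIM promoter entry holds fewer CpGs than the other 4 shown above, and the distance from this peak to any CpG-rich part of the gene was not measured. Inside the gene, a strong knockout-only peak with a pileup of 29 (19.4 to 41.7) lay 5.82 kb from the start, at 17275556 to 17275933.

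**Figure D2:**
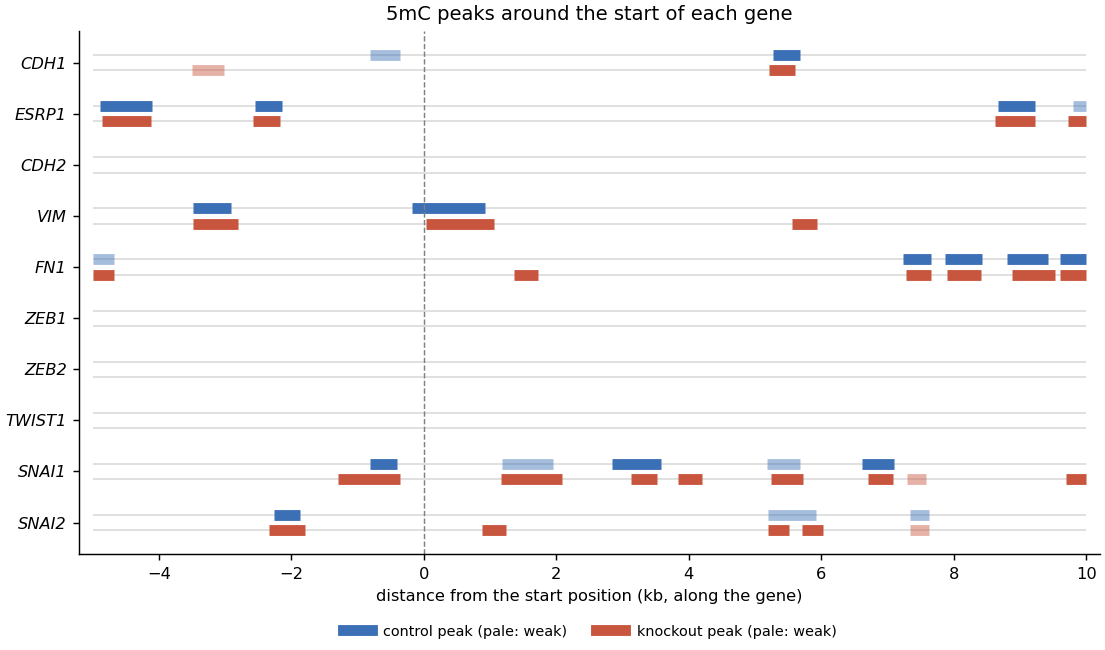
Extent of the peaks from 5 kb upstream to 10 kb downstream of the start of each gene (x axis, kb along the gene; dashed line, start position), with control peaks in blue above and knockout peaks in red below each gene's name line; pale bars are weak peaks. VIM has a peak at the start in both lists, SNAI1 and SNAI2 have peaks within 2.07 kb of it, and CDH2, ZEB1, ZEB2 and TWIST1 have none in the window.

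Most methylated regions of the 10 genes were found in both genotypes. A knockout peak lay over 85 of the 92 control ones (92.4%, 84.9 to 96.9), and a control peak over 82 of the 114 knockout ones (71.9%, 62.7 to 79.9). List-only peaks thus made up 7.61% of the control peaks and 28.1% of the knockout peaks, against 12.1% and 23.9% of the whole lists, both within the counting intervals (3.11 to 15.1 and 20.1 to 37.3). By gene, the knockout-only share was 33.3% in CDH1 (14 of 42), 28.6% in FN1 (8 of 28) and 13.0% in ESRP1 (3 of 23).

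Among strong peaks, 19 of 94 in the knockout had no control counterpart. This was 20.2% (12.6 to 29.8), against 14.9% of strong knockout peaks over the whole list, which lies within the interval. The control had 1 of 59, or 1.69% (0.0429 to 9.09), against 3.24%. The 19 were divided over 7 genes, with 6 in CDH1, 5 in FN1, 3 in ESRP1, 2 in SNAI1 and 1 each in VIM, ZEB1 and SNAI2. After the knockout's pileups and backgrounds were scaled down to the control's depth, 2 of the 19 remained strong. The share of all strong knockout peaks that stays strong under this scaling is not given here, so the 2 cannot be set against it. Depth moves with this count, and its part in the result was not tested.

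In CDH1 the knockout-only strong peak of highest −log10 q was at 68866341 to 68866744, with a pileup of 37 (26.1 to 51.0), and a peak of the control list lay within 1000 bp of it. The next were at 68799818 to 68800164 with a pileup of 31 and at 68808879 to 68809342 with 30. In ESRP1 the 3 were at 95702047 to 95702386 with a pileup of 29, and at 95711062 to 95711407 and 95714068 to 95714396 with 25 each. Beside the peak near its start, FN1 had knockout-only strong peaks at 216285219 to 216285614 with 29 and at 216227418 to 216227731 with 28. SNAI1 had a pair inside the span, at 48602838 to 48603202 with a pileup of 40 (28.6 to 54.5) and at 48608699 to 48609026 with 28. Of the 19 peaks, 6 had a control peak within 1000 bp. The strong control-only peak was in FN1, at 216251415 to 216251767, with a pileup of 23 (14.6 to 34.5) and a knockout peak within 1000 bp.

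Where a region of these genes was methylated in both genotypes, the median difference in level was small. Peaks that met a single partner, each being the other's only overlap, made 76 pairs. Their median log2 ratio of pileups, knockout over control and scaled by the floors, was 0.09 (-0.05 to 0.18), against 0.04 over all 206556 pairs. The ratios ran from -0.54 to 0.83, and 47 of 76 were above 0. The counting interval included 0 in 75 of the 76. For neither count is the share over all pairs given here, so neither can be set against it.

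Over 1.5-fold higher in the knockout were 6 of 76 pairs (7.89%), against 5.14% of all pairs, and 0 were over 1.5-fold lower, against 3.6%. This one-sided count held for pileup scaled by the floors. By the authors' fold enrichment, which divides by the local background, 7 of 76 pairs were higher (against 9% of all pairs) and 4 lower (against 7.37% of all pairs), and 4 of the 6 were among the higher. The 4 lower pairs were 1 in CDH1 (-0.63 on the log2 scale) and 3 in ESRP1 (-0.70, -0.68 and -1.04), all with a local background of 1.46 to 1.70 times the floor in the knockout. Of the 6 pairs higher by pileup, CDH1 held 5 and FN1 held the other. By pileup the largest difference was in CDH1 56.0 kb from the start, where the control peak at 68826817 to 68827129 had a pileup of 19 and the knockout peak at 68826730 to 68827195 had 51. This gave a log2 ratio of 0.83 (0.04 to 1.67), the only 1 of the 76 whose interval left out 0. In CDH1 22.7 kb from the start the pileups were 15 and 38, a log2 ratio of 0.74 (-0.15 to 1.71). In FN1 40.9 kb from the start they were 18 and 44, a log2 ratio of 0.69 (-0.13 to 1.57). The other CDH1 pairs had pileups of 23 and 55, 25 and 59, and 22 and 50.

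The higher level over CDH1 was shared by its surroundings. The median log2 ratio of its 24 pairs was 0.21 (0.01 to 0.47). In the 2.5 Mb on each side it was 0.20 (0.18 to 0.23) over 1083 pairs. The local background moved in the same direction, with a mean log2 ratio of 0.19 in the gene and 0.22 in the flanks, against 0.11 over all pairs. Inside ESRP1 and SNAI1 the mean background ratio was also above that of all pairs, at 0.24 and 0.39, but their flanks had 0.07 and 0.09. It was 0.04 in FN1 and in SNAI2, -0.18 in VIM, and -0.34 in ZEB1 and -0.48 in ZEB2, with 1 pair each. Copy number or another regional difference between the libraries was not tested.

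In the other genes with 6 or more pairs the medians lay near 0, while single pairs ran from -0.51 to 0.50 in ESRP1 and from -0.54 to 0.69 in FN1. ESRP1 had a median log2 ratio of 0.13 (-0.14 to 0.28) over 20 pairs, and its flanks 0.02. FN1 had -0.08 (-0.24 to 0.16) over 20 pairs, and its flanks -0.01. SNAI1 had 0.06 (-0.05 to 0.40) over 6 pairs, and its flanks 0.04; by the authors' fold enrichment the medians were -0.10 in SNAI1, 0.000179 in ESRP1, 0.02 in FN1 and 0.12 in CDH1. For the pair at the start of VIM the ratio was 0.22 (-0.29 to 0.75), and for the one upstream of it -0.20 (-0.87 to 0.47). By fold enrichment the pair at the VIM start was past 1.5-fold, with a log2 ratio of 0.65, where the local background was 1.40 times the floor for the control peak and 1.06 times for the knockout peak. The strong region upstream of SNAI2 gave 0.31 (-0.25 to 0.89), the only pair of ZEB1 0.21 (-0.73 to 1.19) and that of ZEB2 -0.15 (-1.05 to 0.79). These intervals span differences of over 1.5-fold in at least 1 direction for each of the pairs named, so single pairs could not settle differences of that size. The smallest detectable difference was not computed.

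**Figure D3:**
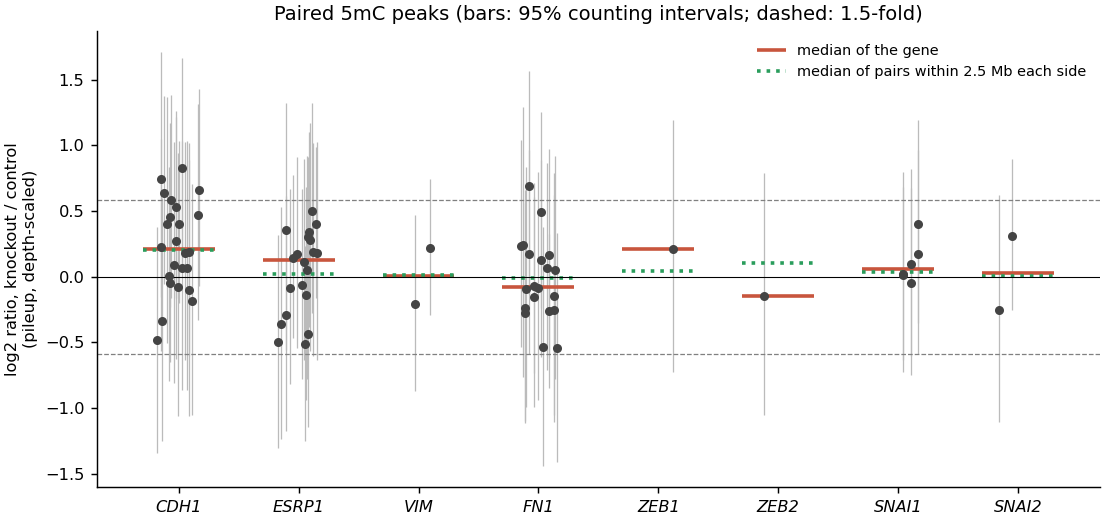
Log2 ratio of depth-scaled pileup, knockout over control (y axis), for each of the 76 paired peaks (points, with 95% counting intervals) of the 8 genes that have any; red lines are medians of the gene, green dotted lines medians of the pairs in the 2.5 Mb on each side, and dashed lines mark 1.5-fold. CDH1 and its flanks share medians of 0.21 and 0.20, and 75 of 76 intervals include 0.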

How the data were processed

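MeDIP-seq libraries of 4 groups were mapped to their labels by title, and the 2 lists by the genotype and antibody in their names. Per the submitters' processing notes, BWA, FastQC and MACS2 were used with hg19. Their versions and settings are not given in the sources used here. As deposited by the authors, the pileup signal is a whole number of fragments with no scaling to depth. Fold enrichment, as the authors deposited it, sets pileup plus 1 over local background plus 1 as a ratio, and the deposited −log10 p and −log10 q come from the caller. Library totals were not listed.

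Inverting that ratio gave each peak's background. Its Poisson tail gave the listed −log10 p within 0.000573. Its minimum, the floor, scaled depth. Overlap needed 1 bp. Strong peaks had a −log10 q of at least 10. Intervals at 95% are exact Poisson for pileups, Clopper-Pearson for shares and ratios, and order statistics for medians. Peaks were named by rule: the highest of each gene in each list, those within 5 kb of a start that were strong or nearest, up to 3 list-only strong peaks per gene and list, and pairs past 1.5-fold. Strands came from RefSeq promoter entries or, for CDH1, ESRP1, TWIST1, SNAI1 and SNAI2, from textbook knowledge. The genes and lists were chosen with earlier results of these data known. An hg19 annotation was not used here, so exons, introns and further genes of the pathway were not analysed. Python 3.11.15 with pandas 2.3.3 and scipy 1.17.1 was used, and overlap and pairing were tested on simulated peaks.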

Additional observations from a re-analysis of the deposited data

How the results depend on the processing

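Alternatives were listed with earlier results of these data known. Of 29 alternatives for the counts, shares and the median ratio over the 10 genes, 2 of them chosen after seeing the data, 17 stayed within 1.5 times the count or within the 95% interval, 12 left these bounds and 0 reversed. The 2 replaced depth-scaled pileup by the authors' fold enrichment, which gave 7 pairs over 1.5-fold higher in place of 6 and 4 lower in place of 0. With peaks of a −log10 q of at least 10 only, by construction fewer, control peaks numbered 59 and 98.3% of them were shared. With at least 50% reciprocal overlap, 81.5% of control peaks were shared and 6 strong peaks were control-only. Counting any peak within 1000 bp as shared left 0 strong control-only peaks and raised the shared knockout peaks to 81.6%. With strength set at a −log10 q of 5, list-only peaks numbered 30 in the knockout and 7 in the control, and at 20 they numbered 1 and 0. Scaled to the control's depth, 2 knockout-only peaks were strong. For the remaining changes the cause was not tested. The median log2 ratio over the 76 pairs stayed within its interval under all 5 alternatives, from 0.05 to 0.12, and was 0.05 without CDH1. Of 32 further alternatives, for gene medians and peak-free stretches, 6 left their bounds. With strong peaks alone the peak-free stretch at the start grew in the control from 5.62 to 11.7 kb in CDH1, from 11.9 to 76.7 kb in FN1, from 1.58 to 3.24 kb in SNAI1 and from 7.06 to 12.3 kb in SNAI2, and in the knockout from 101 to 203 kb in ZEB1. The sixth was the SNAI1 median by fold enrichment. Medians of VIM (0.01), FN1 (-0.08) and SNAI1 (0.06), none past 1.5-fold, changed sign under an alternative, to -0.01, 0.02 and -0.10. No paired analysis was possible because every group was a lone library.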
